A study of Mus musculus with 18 samples.

Results

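Microglial identity and complement C1q transcripts were followed in the hypothalamus of hypertensive BPH/2J and normotensive BPN/3J mice through 10 genes, *Aif1*, *Cx3cr1*, *P2ry12*, *Tmem119*, *Csf1r*, *Trem2*, *C1qa*, *C1qb*, *C1qc* and *Cd68*. A gene was taken in when the platform annotation gave its symbol, and no other symbol, to a probeset of the Affymetrix Mouse Gene 1.0 ST array. Each of the 10 genes had 1 such probeset, out of 34760 probesets and of 19937 genes with a probeset of their own.

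Microglia are the resident macrophages of the brain, and they keep themselves alive through CSF1R, read fractalkine from neurons through CX3CR1 and extend processes towards released nucleotides through P2RY12. C1q, the molecule that starts the classical complement pathway, is built from A, B and C chains that are encoded by *C1qa*, *C1qb* and *C1qc* and assembled together, and microglia are its main source in the brain. *P2ry12*, *Tmem119* and *Cx3cr1* are widely used as marks of the surveying state, whereas *Trem2*, a lipid-sensing receptor, *Cd68*, a lysosomal glycoprotein, and *Aif1*, an actin-binding protein, are often used to follow activation and phagocytosis.

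All 18 mice were male, and each array held 1 mouse without pooling. At ‘peak’ BP, in the active period, 6 BPH/2J and 6 BPN/3J mice of 26 weeks were used. At ‘trough’ BP, in the inactive period, 3 BPH/2J and 3 BPN/3J mice were used, with an age of 18 weeks by the sample labels and 19 weeks by the text of the series. Age and time of day therefore differed together and cannot be told apart in any comparison of ‘peak’ with ‘trough’ BP. BPH/2J and BPN/3J are inbred strains bred apart for high and for normal blood pressure, so a strain difference covers every locus at which they differ. For the BPN/3J ‘trough’ mice 1 label names BPH/2J as the strain, while the titles and the normotensive label name BPN, and the titles were followed. Tissue is given as hypothalamus in the labels, and the study's methods describe dissected paraventricular and dorsomedial nuclei. In such bulk tissue, fewer microglia and less RNA per microglial cell cannot be told apart.

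Values are log2 signals after RMA (robust multi-array analysis) by the authors, so a difference of 1 is a doubling. The median signal per array lay between 6.166 and 6.423, and any pair of arrays correlated at 0.948 to 0.992, with BPN/3J ‘trough’ mouse 1 and BPN/3J ‘peak’ mouse 11 the least correlated with the others. Within the ‘peak’ groups, the mice with the highest numbers in the titles (BPH/2J 8 and 9, BPN/3J 10 and 11) stood apart from the lower-numbered mice, and results touched by them are given with and without them. Differences were tested with limma in 1 model of the 4 groups, p-values were adjusted over all 34760 probesets, and an adjusted p under 0.05 was called. The precision of every value is limited by the number of arrays.

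Signals of the 10 genes stood well inside the range of the array. Their mean over 18 mice ranked from the 48.9th percentile of all probesets for *Aif1* to the 80.6th for *Csf1r*, a ranking that depends on each gene's probes and does not order the genes by abundance. Ordering the 4 groups by mean for each gene gave 30 pairs of neighbouring groups. In 27 of them the ranges of the mice overlapped. The exceptions were *Cx3cr1* and *Csf1r*, where all BPH/2J ‘trough’ mice were above all BPN/3J ‘trough’ mice, and *C1qc*, where all BPN/3J ‘peak’ mice were above all BPH/2J ‘trough’ mice. The gap seen for *Cx3cr1* and *Csf1r* was found for 11.1% of all probesets. For *Cx3cr1* the difference was only 0.071 ± 0.15 (SE, limma adjusted p = 0.89). For the gap between BPN/3J ‘peak’ and BPH/2J ‘trough’ mice no such share was counted.

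**Figure D1:**
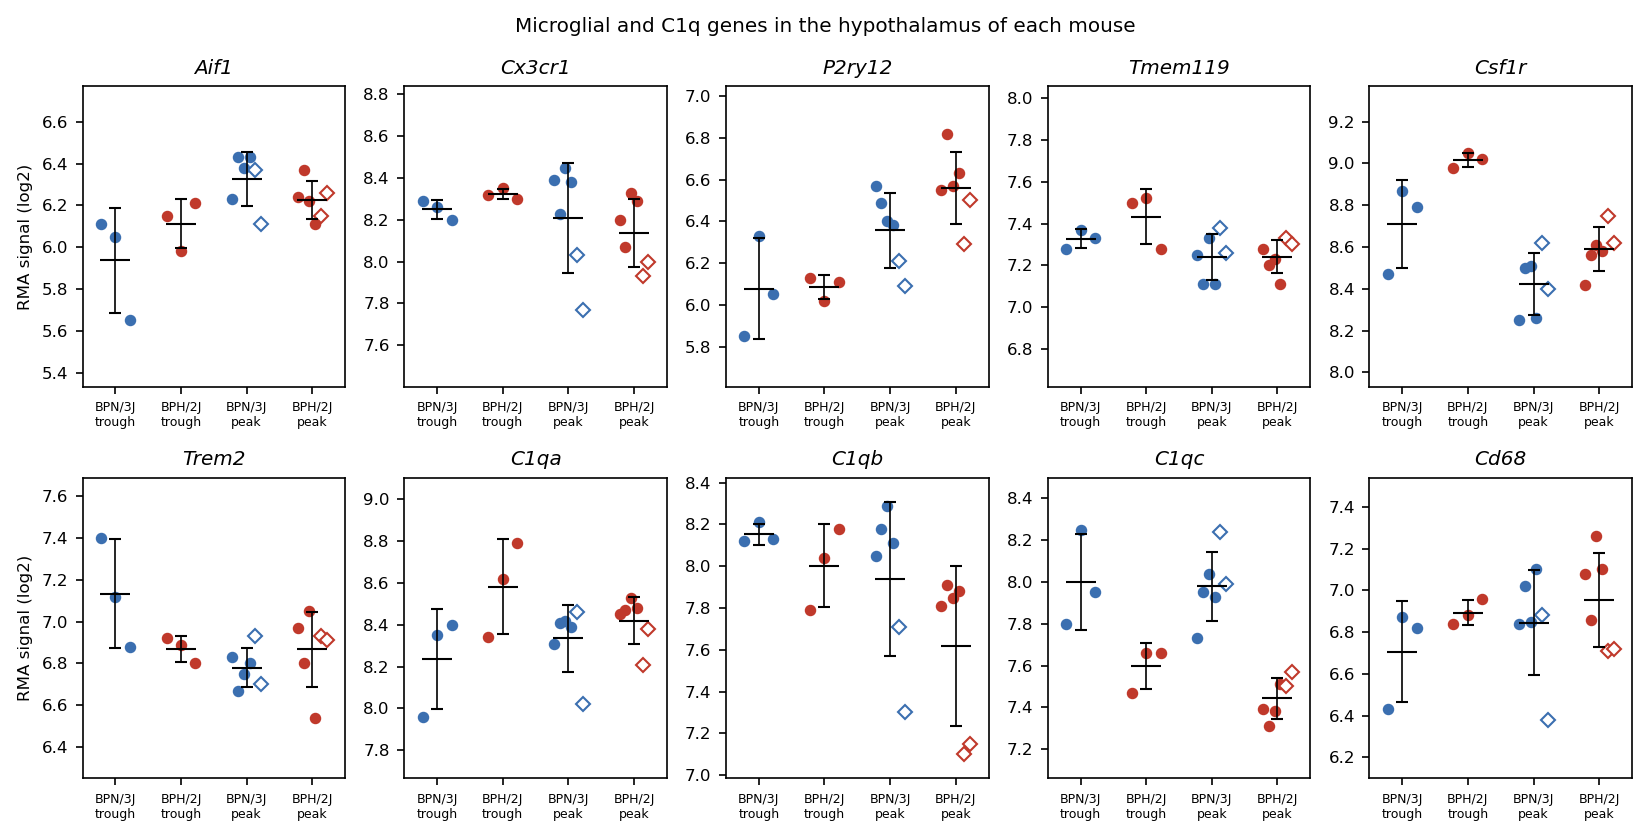
RMA log2 signal of the 10 genes (y axes, the same span but different limits in each panel) in each mouse of the 4 groups (x axis), with BPN/3J in blue and BPH/2J in red. Points are mice, open diamonds are the higher-numbered ‘peak’ mice, and bars give the mean ± SD. For *C1qc*, all red points lie at or under 7.66 and all blue points at or over 7.73.

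The clearest strain difference among the 10 genes was in the signal of the C chain of C1q, read by 1 probeset. Probe sequences were not at hand, so whether a strain variant under its probes altered the signal was not tested. *C1qc* was lower in BPH/2J than in BPN/3J mice at ‘peak’ BP, while *C1qa* and *C1qb* did not pass the test, and *C1qc* was the 1 gene of the 10 called between the strains at ‘peak’ BP, where 1.33% of all probesets were called. At ‘peak’ BP the *C1qc* signal in BPH/2J mice was 7.31 at the lowest, 7.44 at the median and 7.57 at the highest. BPN/3J mice had 7.73 at the lowest, 7.97 at the median and 8.24 at the highest. Every BPH/2J mouse was under every BPN/3J mouse, a separation in this direction found for 0.826% of all probesets. The difference (BPH/2J minus BPN/3J) was -0.54 ± 0.09 (SE) on the log2 scale, a signal 1.45-fold lower, with an adjusted p of 0.00257 from limma. A 2-sided exact permutation test of the 6 against 6 mice gave p = 0.00216, the smallest it can give.

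At ‘trough’ BP the *C1qc* signals were 7.47, 7.66 and 7.66 in the BPH/2J mice. They were 7.80, 7.95 and 8.25 in the BPN/3J mice. Again no mouse overlapped, with BPH/2J lower as in 8.73% of probesets. The difference was -0.40 ± 0.13 (SE), but it did not pass the test (limma adjusted p = 0.265, unadjusted p = 0.00566), and 3 against 3 mice cannot give an exact p under 0.1. Over both times, the highest of the 9 BPH/2J mice (7.66) was under the lowest of the 9 BPN/3J mice (7.73). Such a complete separation, with BPH/2J lower, was found for 99 probesets (0.285%), and a gap of this direction at each time taken alone was found for 0.432%. None of the 10 genes was called between the strains at ‘trough’ BP by limma, where 0.529% of all probesets were called, and 3 (*C1qc*, *Csf1r* and *C1qa*) had an unadjusted p under 0.05, beside 10.4% of all probesets. The *C1qc* gap was present among the lower-numbered ‘peak’ mice, at 7.31 to 7.51 in BPH/2J against 7.73 to 8.04 in BPN/3J, and among the higher-numbered ones, at 7.50 to 7.57 against 7.99 to 8.24. With any 1 array left out, the difference at ‘peak’ BP stayed between -0.59 and -0.49 and was called each time.

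The A chain had no such gap. *C1qa* at ‘peak’ BP was 8.21 at the lowest, 8.46 at the median and 8.53 at the highest in BPH/2J mice. The BPN/3J values were 8.02, 8.40 and 8.46, and the groups overlapped. The difference was 0.085 ± 0.10 (SE, limma adjusted p = 0.878), with a 95% interval of -0.13 to 0.30. At ‘trough’ BP *C1qa* was 8.34, 8.62 and 8.79 in BPH/2J against 7.96, 8.35 and 8.40 in BPN/3J mice, a difference in the opposite direction to that of *C1qc* (0.35 ± 0.14 SE) that did not pass the test (limma adjusted p = 0.422).

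*C1qb*, the B chain, spread more than the other 2 chains at ‘peak’ BP. It was 7.10 at the lowest, 7.83 at the median and 7.91 at the highest in BPH/2J mice. The BPN/3J mice had 7.30, 8.08 and 8.29. The strains overlapped, and the higher-numbered mice of both were the lowest, at 7.10 and 7.15 in BPH/2J and at 7.30 and 7.71 in BPN/3J. The difference was -0.32 ± 0.18 (SE, limma adjusted p = 0.603). With a term for the higher-numbered mice in the model, the same difference had an SE of 0.077 and an adjusted p of 0.039, and with the lower-numbered mice alone it was -0.29 (adjusted p = 0.172), so the call turns on how these 4 mice are treated. At ‘trough’ BP *C1qb* was 7.79, 8.04 and 8.18 in BPH/2J and 8.12, 8.13 and 8.21 in BPN/3J mice, which overlapped (difference -0.15 ± 0.25 SE, limma adjusted p = 0.853).

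Chain against chain within each array, the strains differed in *C1qc* relative to *C1qa*. The *C1qc* minus *C1qa* difference at ‘peak’ BP was -0.98 ± 0.18 (SD, n = 6) in BPH/2J mice and -0.35 ± 0.20 (SD, n = 6) in BPN/3J mice. Ranges did not overlap (-1.16 to -0.71 against -0.58 to -0.026). The 2-sided exact permutation p was 0.00216, or 0.013 after Benjamini-Hochberg adjustment over the 6 chain comparisons made. These comparisons were not planned and reuse the arrays in which *C1qc* was already seen to differ, so their p-values are no separate support. At ‘trough’ BP the same quantity was -0.99 ± 0.13 (SD, n = 3) against -0.24 ± 0.19 (SD, n = 3), again without overlap, with the smallest p that 3 against 3 mice allow (exact p = 0.1, adjusted 0.15). *C1qb* minus *C1qa* had an exact p of 0.0325 at ‘peak’ BP (adjusted 0.0974) and of 0.1 at ‘trough’ BP (adjusted 0.15). *C1qc* minus *C1qb* had adjusted exact p-values of 0.452 and 0.24. These last quantities depended on the higher-numbered ‘peak’ mice. *C1qc* minus *C1qb* ran from -0.61 to -0.37 in the lower-numbered BPH/2J mice and from -0.32 to -0.18 in the lower-numbered BPN/3J mice, without overlap, and the higher-numbered mice stood at 0.39 to 0.42 and 0.54 to 0.69. *C1qb* minus *C1qa* ran from -0.68 to -0.56 against -0.28 to -0.13 in the lower-numbered mice and from -1.23 to -1.11 against -0.76 to -0.72 in the higher-numbered ones. *C1qc* minus *C1qa* likewise did not overlap in either subset, at -1.16 to -0.97 against -0.58 to -0.38 and at -0.81 to -0.71 against -0.22 to -0.026. The values by mouse number are a description with no test.

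*C1qb*, *C1qc* and *C1qa* lie next to each other in this order on chromosome 4 in the RefSeq annotation of assembly GRCm38.p6. Because they are neighbours, the genes around them were also looked at, a set chosen after the *C1qc* values had been seen. None of the measured flanking genes from *Htr1d* to *Cela3b* was called between the strains at either time by limma. *Htr1d*, a serotonin receptor, had the smallest adjusted p among them at ‘peak’ BP, at 0.176 (difference -0.36 ± 0.11 SE), and at ‘trough’ BP its difference was -0.46 ± 0.16 (SE, adjusted p = 0.319). *Epha8*, an ephrin receptor on the other side of the cluster, had -0.12 ± 0.065 (SE, adjusted p = 0.58) at ‘peak’ BP.

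The 250 bases before the start of *C1qb* and of *C1qc* are shown because *C1qc* carried the strain difference and *C1qb* is its neighbour. *C1qa*, the chain from which *C1qc* differed most between the strains, was not in the promoter table used here. The sequences are from the RefSeq promoter table of GRCm38.p6, where both are on the minus strand, at chr4:136886201-136886450 for *C1qb* and chr4:136892915-136893164 for *C1qc*. Capitals mark GAGGAA, the purine-rich core bound by the myeloid factor PU.1, or its reverse complement TTCCTC.
C1qb: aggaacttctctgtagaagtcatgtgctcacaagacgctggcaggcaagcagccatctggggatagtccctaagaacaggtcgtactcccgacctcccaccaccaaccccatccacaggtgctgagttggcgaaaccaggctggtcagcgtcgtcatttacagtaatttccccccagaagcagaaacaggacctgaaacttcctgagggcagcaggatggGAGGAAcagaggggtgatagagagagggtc
C1qc: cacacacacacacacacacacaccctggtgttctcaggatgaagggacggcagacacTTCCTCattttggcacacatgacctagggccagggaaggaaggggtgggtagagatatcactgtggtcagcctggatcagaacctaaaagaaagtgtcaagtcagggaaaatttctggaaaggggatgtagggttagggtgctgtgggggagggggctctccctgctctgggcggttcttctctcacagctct
The match begins 30 bases before the start in *C1qb* and 193 bases before it, on the opposite strand, in *C1qc*. Of the 10 genes, 7 had a promoter in the table, and in a window of 300 bases (250 before to 50 after the start) 5 of them, *Aif1*, *Trem2*, *C1qb*, *C1qc* and *Cd68*, held the motif on either strand. *Cx3cr1* and *P2ry12* did not hold these letters in the window, and 28.3% of the 32851 promoters in the table did. *Spi1*, which encodes PU.1, was not called between the strains at ‘peak’ BP (difference 0.21 ± 0.087 SE, limma adjusted p = 0.402) or at ‘trough’ BP (0.053 ± 0.12 SE, adjusted p = 0.901).

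Between ‘peak’ and ‘trough’ BP, genes of microglial identity moved in different directions. In BPH/2J mice *P2ry12* rose and *Csf1r* fell at ‘peak’ BP, so that 2 of the 10 genes were called, beside 8.64% of all probesets. *Aif1* rose in BPN/3J mice and *Trem2* and *Csf1r* fell, so that 3 of the 10 were called, beside 25.3% of all probesets. The median difference over the 10 genes was -0.16 in BPH/2J mice (-0.018 over all probesets) and -0.029 in BPN/3J mice (-0.012 over all probesets).

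*Csf1r*, the receptor for CSF1 and IL-34 on which microglia depend, was lower at ‘peak’ BP in both strains. BPH/2J mice had 8.98, 9.02 and 9.05 at ‘trough’ BP. At ‘peak’ BP it was 8.42 at the lowest, 8.60 at the median and 8.75 at the highest. All ‘peak’ mice were under all ‘trough’ mice, a separation in this direction found for 9.55% of probesets. The difference (‘peak’ minus ‘trough’) was -0.42 ± 0.10 (SE), a signal 1.34-fold lower, with an adjusted p of 0.0156 from limma. *Csf1r* in BPN/3J mice was 8.47, 8.79 and 8.87 at ‘trough’ BP and 8.25, 8.45 and 8.62 (lowest, median and highest) at ‘peak’ BP. Here the groups overlapped, and the difference of -0.29 ± 0.10 (SE) passed narrowly (adjusted p = 0.048 from limma). Without BPH/2J ‘trough’ mouse 1, 2 or 3 the call in BPH/2J mice was lost, with differences of -0.44 to -0.41 and adjusted p-values of 0.0592 to 0.0684. The BPN/3J call was lost without ‘trough’ mouse 3 or 4 (-0.21 and -0.25, adjusted p = 0.225 and 0.134) and without BPN/3J ‘peak’ mouse 5, 6, 8 or 11 (-0.30 to -0.25, adjusted p of 0.0603 to 0.0903). Leaving out BPH/2J ‘trough’ mouse 1, 2 or 3 or ‘peak’ mouse 5, 6, 7 or 9 moved the BPN/3J adjusted p to between 0.0518 and 0.0592 at a difference of -0.29. With the arrays centred on their medians the differences were -0.36 in BPH/2J (adjusted p = 0.0589) and -0.19 in BPN/3J mice (adjusted p = 0.213).

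*Csf1r* also stood higher in BPH/2J mice at ‘trough’ BP, where all 3 (8.98 to 9.05) were above all 3 BPN/3J mice (8.47 to 8.87). In 11.1% of probesets the BPH/2J ‘trough’ mice were likewise all higher. The strain difference at ‘trough’ BP was 0.31 ± 0.12 (SE, limma adjusted p = 0.388), and at ‘peak’ BP it was 0.17 ± 0.083 (SE, limma adjusted p = 0.527). The ligands of CSF1R, *Csf1* and *Il34*, were called in no comparison. *Csf1* had a ‘peak’ minus ‘trough’ difference of -0.11 in both strains, with an SE of 0.099 in each and limma adjusted p-values of 0.543 and 0.434.

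*P2ry12*, the purinergic receptor that steers microglial processes to ATP and ADP, was higher at ‘peak’ BP. BPH/2J mice had 6.02, 6.11 and 6.13 at ‘trough’ BP. At ‘peak’ BP it was 6.29 at the lowest, 6.56 at the median and 6.82 at the highest. The groups did not overlap, which in this direction was so for 8.19% of probesets. The difference was 0.47 ± 0.12 (SE), a signal 1.39-fold higher, with an adjusted p of 0.0265 from limma, and the exact permutation p of 0.0238 was the smallest that 6 against 3 mice can give. The call was lost without BPH/2J ‘trough’ mouse 1, 2 or 3 (0.44 to 0.49, adjusted p of 0.0808 to 0.11) and without ‘peak’ mouse 5 (0.42, adjusted p = 0.0569) or 7 (0.46, adjusted p = 0.0534).

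*P2ry12* in BPN/3J mice was 5.85, 6.05 and 6.33 at ‘trough’ BP and 6.09, 6.39 and 6.57 (lowest, median and highest) at ‘peak’ BP. These groups overlapped, and the difference of 0.28 ± 0.12 (SE) did not pass (limma adjusted p = 0.103). The low BPN/3J ‘peak’ values were those of the higher-numbered mice 10 (6.21) and 11 (6.09). With the lower-numbered ‘peak’ mice alone the difference was 0.38 (adjusted p = 0.0155), and without ‘peak’ mouse 11 it was 0.34 (adjusted p = 0.0493). A further purinergic receptor of microglia, *P2ry13*, had differences of 0.33 ± 0.20 (SE, limma adjusted p = 0.36) in BPH/2J and 0.31 ± 0.20 (SE, adjusted p = 0.264) in BPN/3J mice.

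*Aif1*, which encodes the cytoskeletal protein IBA1 used to stain microglia, was called in BPN/3J mice. It was 5.65, 6.05 and 6.11 at ‘trough’ BP. At ‘peak’ BP it was 6.11 at the lowest, 6.38 at the median and 6.43 at the highest, so that mouse 11 met the top of the ‘trough’ range. The difference was 0.39 ± 0.11 (SE), a signal 1.31-fold higher, with an adjusted p of 0.0155 from limma. Without ‘trough’ mouse 4, the lowest, the difference was 0.24 and the call was lost (adjusted p = 0.0889). In BPH/2J mice *Aif1* went from 5.98, 6.15 and 6.21 to 6.11, 6.23 and 6.37 (lowest, median and highest), with overlap and a difference of 0.11 ± 0.11 (SE, limma adjusted p = 0.577).

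*Trem2*, the receptor that signals through the adaptor TYROBP, fell in BPN/3J mice at ‘peak’ BP. Its ‘trough’ values were 6.88, 7.12 and 7.40. At ‘peak’ BP it was 6.67 at the lowest, 6.78 at the median and 6.93 at the highest, and the groups overlapped at the lowest ‘trough’ mouse. The difference was -0.35 ± 0.11 (SE), a signal 1.28-fold lower, with an adjusted p of 0.0328 from limma. The call was lost without ‘trough’ mouse 1, the highest and 1 of the least correlated arrays (-0.22, adjusted p = 0.227), without ‘trough’ mouse 3 (-0.36, adjusted p = 0.0875) and without ‘peak’ mouse 6 (-0.33, adjusted p = 0.0631). *Trem2* in BPH/2J mice was 6.80, 6.89 and 6.92 at ‘trough’ BP and 6.54, 6.92 and 7.05 at ‘peak’ BP, which overlapped fully (difference -0.0036 ± 0.11 SE, limma adjusted p = 0.99).

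*Cx3cr1*, *Tmem119*, *Cd68*, *C1qa*, *C1qb* and *C1qc* were not called between the times in either strain. *Cx3cr1*, the fractalkine receptor, was tight at ‘trough’ BP, at 8.30 to 8.35 in BPH/2J and 8.20 to 8.29 in BPN/3J mice. At ‘peak’ BP it ran from 7.93 to 8.33 in BPH/2J and from 7.77 to 8.45 in BPN/3J mice, and its time differences were -0.18 ± 0.13 and -0.042 ± 0.13 (SE). *Tmem119*, a transmembrane protein used to tell microglia from other brain macrophages, was 7.11 to 7.33 at ‘peak’ and 7.28 to 7.52 at ‘trough’ BP in the hypertensive strain (-0.19 ± 0.082 SE, limma adjusted p = 0.162). That difference was called with a term for the higher-numbered mice (-0.23, adjusted p = 0.0412) and with array weights (-0.24, adjusted p = 0.0145). Array weights also called *Tmem119* (-0.16, adjusted p = 0.0347) and *C1qc* (-0.28, adjusted p = 0.00705) in BPN/3J mice, in a fit that called 55.9% of all probesets there. *Tmem119* in the normotensive strain was 7.11 to 7.38 and 7.28 to 7.37. *Cd68* ran from 6.71 to 7.26 in BPH/2J ‘peak’, 6.38 to 7.10 in BPN/3J ‘peak’, 6.84 to 6.96 in BPH/2J ‘trough’ and 6.43 to 6.87 in BPN/3J ‘trough’ mice, so that all 4 groups overlapped.

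**Figure D2:**
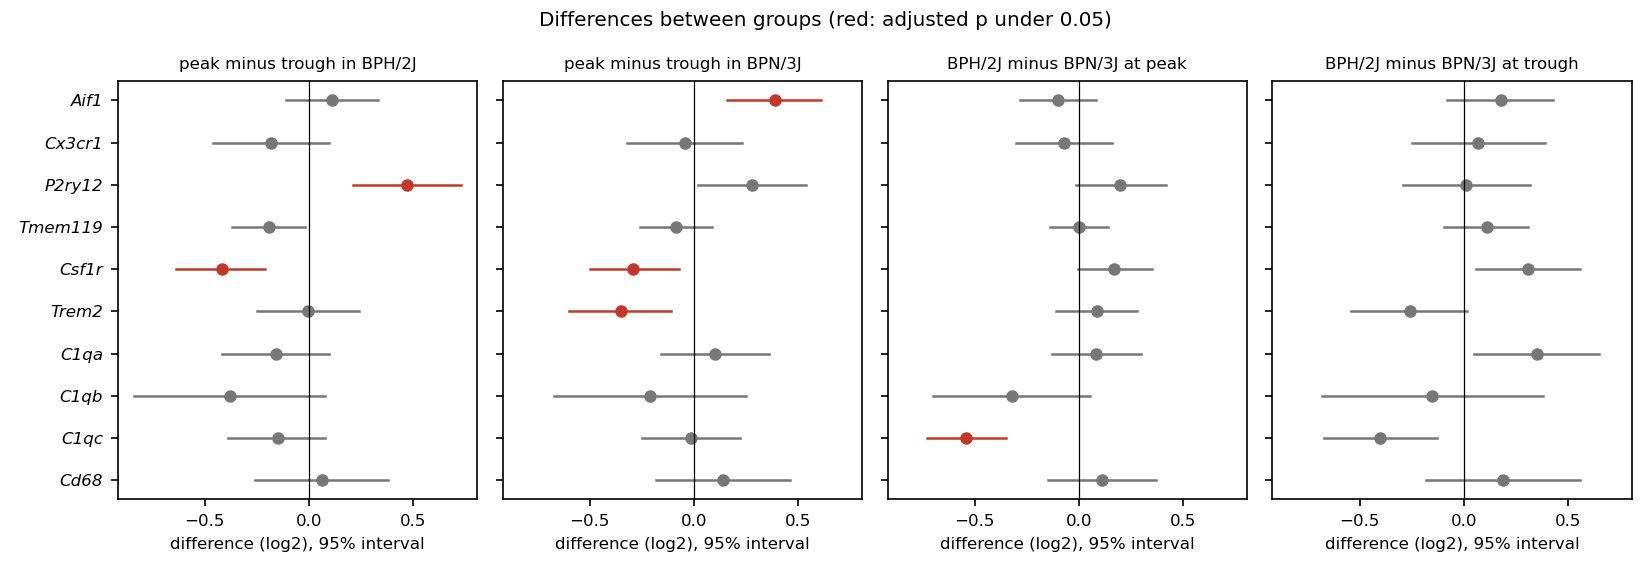
Differences between group means (x axes, log2) with 95% intervals for the 10 genes (y axis) in the 4 comparisons, in red where the adjusted p was under 0.05. *C1qc* is the red point between the strains at ‘peak’ BP (-0.54), *P2ry12* (0.47) and *Csf1r* (-0.42) are red in BPH/2J mice, and *Aif1*, *Csf1r* and *Trem2* in BPN/3J mice.

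The quantity *d* is the strain difference at ‘peak’ BP minus that at ‘trough’ BP, and the *aFD* is the fold it stands for, with the sign of *d*. It asks whether the change from ‘trough’ to ‘peak’ BP differed between the strains. A positive *d* means a more positive change in the hypertensive strain, which need not be the larger change. In limma, 0 of the 10 genes passed for *d*, as did 0% of all probesets (with array weights 0 of the 10 and 997 probesets, 2.87%), and 1 gene had an unadjusted p under 0.05, beside 8.31% of all probesets. That gene was *Trem2* (*d* = 0.35 ± 0.16 SE, *aFD* = 1.28, adjusted p = 0.596). *Aif1* followed with *d* = -0.27 ± 0.15 (SE, *aFD* = -1.21, adjusted p = 0.624). None of the 10 reached an *aFD* of 1.5 in size, which 5.93% of probesets did. So the calls in 1 strain and not in the other, those of *P2ry12*, *Aif1* and *Trem2*, were not accompanied by a called difference between the strains in the change with time. For *P2ry12* *d* was 0.19 ± 0.18 (SE), with a 95% interval of -0.18 to 0.56.

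Taking the 10 genes as 1 average per mouse, each gene centred on its own mean, gave values close to 0 in all 4 groups. The average ran from -0.15 to 0.063 in BPH/2J ‘peak’, from -0.24 to 0.10 in BPN/3J ‘peak’, from 0.0031 to 0.092 in BPH/2J ‘trough’ and from -0.07 to 0.13 in BPN/3J ‘trough’ mice. All groups overlapped, and the lowest mice were BPN/3J ‘peak’ 11 (-0.24) and BPH/2J ‘peak’ 8 (-0.15). The average sums genes that were called in opposite directions.

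From mouse to mouse within the groups, the 10 genes did not rise and fall as 1 unit. Each mouse's deviation from its group mean was correlated between genes over the 18 mice, with p from 100000 permutations within groups and Benjamini-Hochberg adjustment over the 45 pairs. Of these, 7 pairs passed, and in all 7 the correlation was positive. They formed a block of *Cx3cr1*, *P2ry12*, *C1qa*, *C1qb* and *Cd68*, and apart from it the pair *Csf1r* and *C1qc*. Over all 45 pairs the median r was 0.085, against 0.01 over all pairs of probesets with 1 symbol, and r of at least 0.5 was reached by 22.2% of the pairs, against 11.1%.

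**Figure D3:**
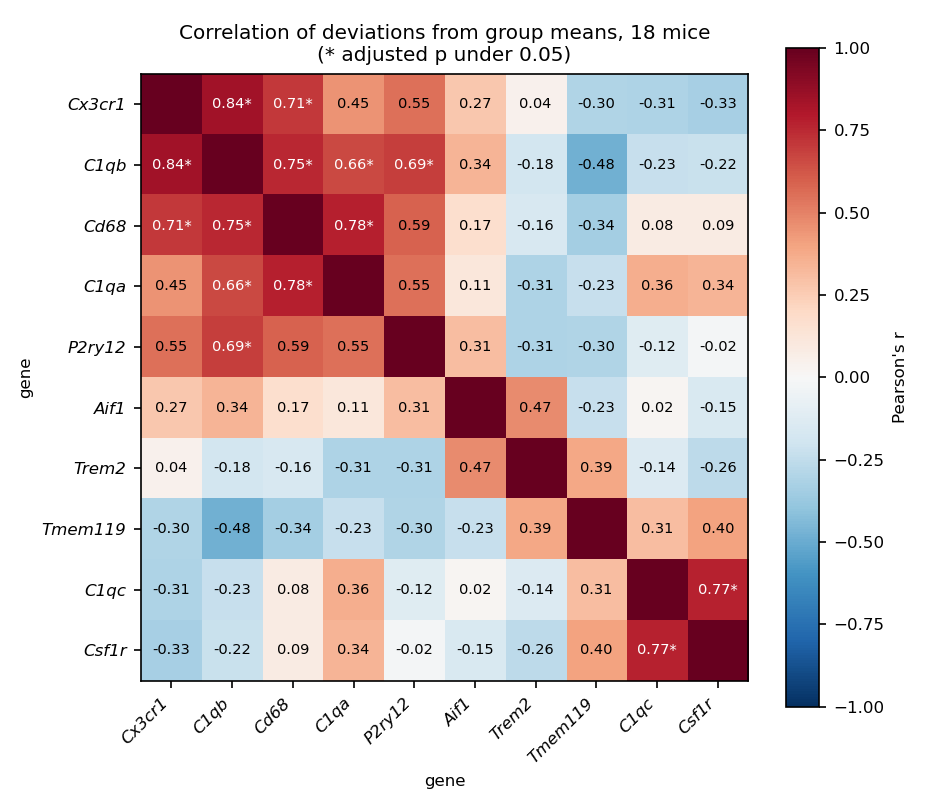
Pearson's r (colour and number) between the deviations of each pair of the 10 genes (both axes) from their group means over 18 mice, with an asterisk where the adjusted permutation p was under 0.05. The starred pairs join *Cx3cr1*, *C1qb*, *Cd68*, *C1qa* and *P2ry12* at the upper left and *C1qc* with *Csf1r* at the lower right (0.77).

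*C1qa* and *Cd68* had r = 0.78 (n = 18, permutation p = 0.00027, adjusted 0.0121) and rho = 0.71 (permutation p = 0.00095). Without the 2 mice farthest from the median of *C1qa*, r was 0.60, and without the higher-numbered ‘peak’ mice it was 0.65 over 14 mice. *C1qa* and *C1qb* had r = 0.66 (permutation p = 0.00135, adjusted 0.0153) and rho = 0.45 (permutation p = 0.0338), with 0.59 without the 2 farthest mice and 0.70 over the 14 mice. *Csf1r* and *C1qc* had r = 0.77 (permutation p = 0.0028, adjusted 0.0231) and rho = 0.74 (permutation p = 0.00264), with 0.75 and 0.72. In these 3 pairs r stayed at 0.65 or above without the mice that stood apart. By rho, *C1qa* with *Cd68* and *Csf1r* with *C1qc* also passed (adjusted permutation p = 0.0349 and 0.0396). *C1qa* with *C1qb* did not pass by rho (adjusted permutation p = 0.231) or after quantile normalization (adjusted permutation p = 0.0939).

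The other 4 pairs rested on the higher-numbered mice. *Cx3cr1* and *C1qb* had r = 0.84 over 18 mice (permutation p = 0.00136, adjusted 0.0153; rho = 0.67, permutation p = 0.0144) and 0.68 without the 2 farthest, but -0.053 over the 14 mice. *P2ry12* and *C1qb* went from 0.69 (permutation p = 0.00079, adjusted 0.0153, and rho = 0.71, permutation p = 0.00155) to 0.099, with 0.47 without the 2 farthest mice. Over the 18 mice this pair also passed by rho and after quantile normalization (adjusted permutation p = 0.0349 and 0.0296). *C1qb* and *Cd68* went from 0.75 (permutation p = 0.00308, adjusted 0.0231; rho = 0.58, permutation p = 0.0217) to 0.11, with 0.53 without the 2 farthest. *Cx3cr1* and *Cd68* went from 0.71 (permutation p = 0.00607, adjusted 0.039; rho = 0.54, permutation p = 0.0405) to 0.14, with 0.43 without the 2 farthest. *C1qb* and *C1qc*, chains of the same molecule, did not pass, with r = -0.23 over the 18 mice (permutation p = 0.358, adjusted 0.537; rho = -0.15, permutation p = 0.562). Without the higher-numbered mice the sign turned, and r was 0.63 over 14 mice.

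**Figure D4:**
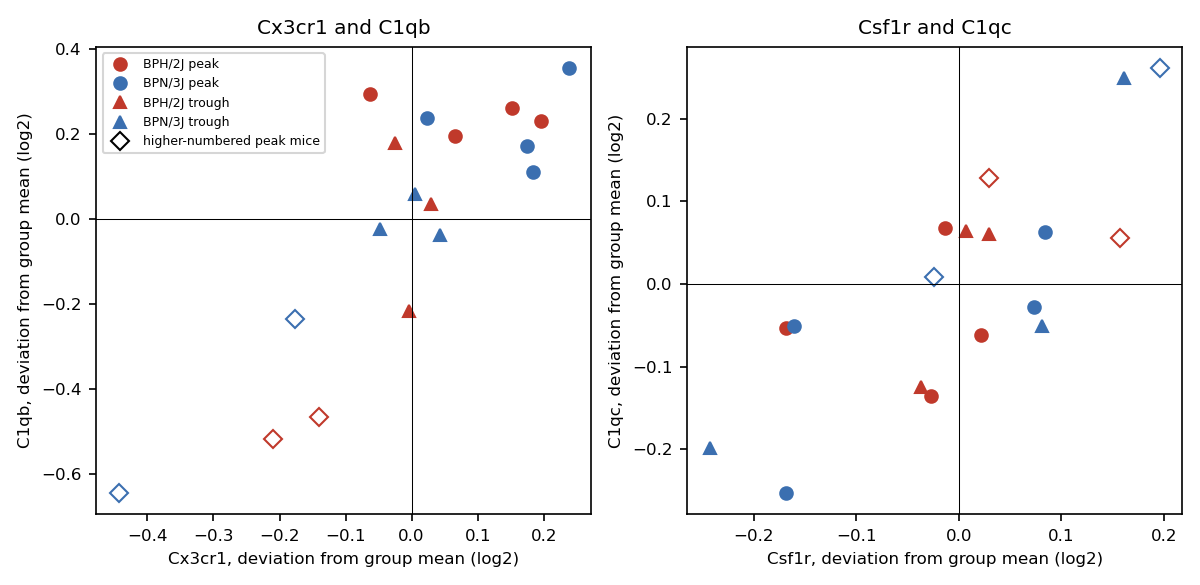
Deviations from the group mean (log2, both axes) of *C1qb* against *Cx3cr1* (left) and of *C1qc* against *Csf1r* (right), 1 point per mouse, with open diamonds for the higher-numbered ‘peak’ mice. On the left the 4 diamonds lie apart at the lower left (r = 0.84 with and -0.053 without them), and on the right they lie among the other mice (0.77 and 0.72).

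The 4 higher-numbered ‘peak’ mice had low *Cx3cr1* and *C1qb* in both strains. *Cx3cr1* ran from 7.77 to 8.03 in these mice, against 8.07 to 8.45 in the 8 lower-numbered mice. *C1qb* was 7.10 to 7.71 in them and 7.81 to 8.29 in the others. So 2 of the 10 genes separated these mice in both strains together, beside 12.1% of all probesets. *P2ry12* separated them within each strain, at 6.29 and 6.50 against 6.55 to 6.82 in BPH/2J and at 6.09 and 6.21 against 6.38 to 6.57 in BPN/3J mice. In BPH/2J mice alone *C1qa* and *Cd68* (lower) and *Tmem119* and *Csf1r* (higher) also did not overlap. For gaps within a strain no share of all probesets was counted. Over both strains the means of *Cd68*, *C1qa* and *Aif1* were also lower in the higher-numbered mice (differences of -0.34, -0.16 and -0.076), with overlap. *Csf1r*, *Tmem119*, *C1qc* and *Trem2* leaned the other way, with means in the higher-numbered mice higher by 0.13, 0.11, 0.17 and 0.064. What set these mice apart is not given by the labels and was not tested.

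Over the 18 arrays, the genes most like the average of the 10, by Pearson's r, were *Bmp2* (0.89), *Gabarap* (0.87), *Bach1* (0.86), *Cd9* (0.86) and *Crybg3* (0.85). By deviations from group means they were *Hsd17b11* and *Efhd1* (0.93 each), *Dhrs7* and *Rbm46* (0.92 each) and *Arrdc3* (0.91). *Lipe*, *Enpp6*, *Gpr37*, *Plcl1* and *S100a1* completed the first 10 by signal (0.83 to 0.84), and *Gabarap*, *Slc39a1*, *Mme*, *Psat1* and *Bmp2* those by deviations (0.90 to 0.91). *Enpp6* and *Gpr37* are known from the oligodendrocyte lineage, and *Cd9*, which stood in the list of reactive microglia used here, is carried by oligodendrocytes too. These values are a description over 18 mice with no test.

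Other genes of microglial identity did not share a direction between the strains. Of 14 measured homeostatic microglial genes, none was called higher in BPH/2J mice at ‘peak’ BP and 1 was called lower, beside 1.33% of all probesets. This gene was *Olfml3*, which encodes a secreted matrix protein. It was 7.11, 7.61 and 7.80 (lowest, median and highest) in BPH/2J and 7.61, 8.10 and 8.23 in BPN/3J mice, a difference of -0.55 ± 0.13 (SE, adjusted p = 0.0421 from limma) with some overlap. At ‘trough’ BP *Olfml3* was 7.58 to 7.65 against 7.88 to 8.08 (-0.35 ± 0.18 SE, adjusted p = 0.523). *Crybb1*, a crystallin used as a microglial mark, was lower in BPH/2J mice at ‘trough’ BP (7.48 to 7.74 against 8.10 to 8.30, difference -0.57 ± 0.11 SE, adjusted p = 0.0171 from limma). At ‘trough’ BP 1 of the 14 was called, beside 0.529% of all probesets. The median strain difference over the list was -0.015 at ‘peak’ and 0.14 at ‘trough’ BP. At ‘peak’ BP 7 differences were positive and 7 negative. An unadjusted p under 0.05 in limma was found for 7 of the 14 at ‘peak’ BP, beside 9.93% of all probesets. At ‘trough’ BP it was found for 2, beside 10.4%.

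Of 22 measured myeloid transcription and signalling genes, 18 had positive strain differences at ‘peak’ BP, with a median of 0.10 against -0.0057 over all probesets. In each direction 1 was called, beside 1.33% of all probesets, and 5 had an unadjusted p under 0.05 in limma, beside 9.93%. *Tyrobp*, the adaptor of TREM2, was higher in BPH/2J mice. It was 6.84, 7.05 and 7.21 (lowest, median and highest) against 6.33, 6.47 and 6.87 in BPN/3J mice, a difference of 0.51 ± 0.088 (SE, adjusted p = 0.00398 from limma). At ‘trough’ BP all 3 BPH/2J mice (6.87 to 6.99) were above all 3 BPN/3J mice (6.58 to 6.65), with a difference of 0.33 ± 0.13 (SE, adjusted p = 0.386). Such a separation in this direction was found for 11.1% of all probesets. *Trem2* itself differed by 0.087 ± 0.093 (SE, adjusted p = 0.859) at ‘peak’ BP. *Laptm5*, a lysosomal membrane protein of haematopoietic cells, was lower in BPH/2J mice (7.77 to 8.18 against 8.21 to 8.69, -0.48 ± 0.10 SE, adjusted p = 0.0247 from limma).

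**Figure D5:**
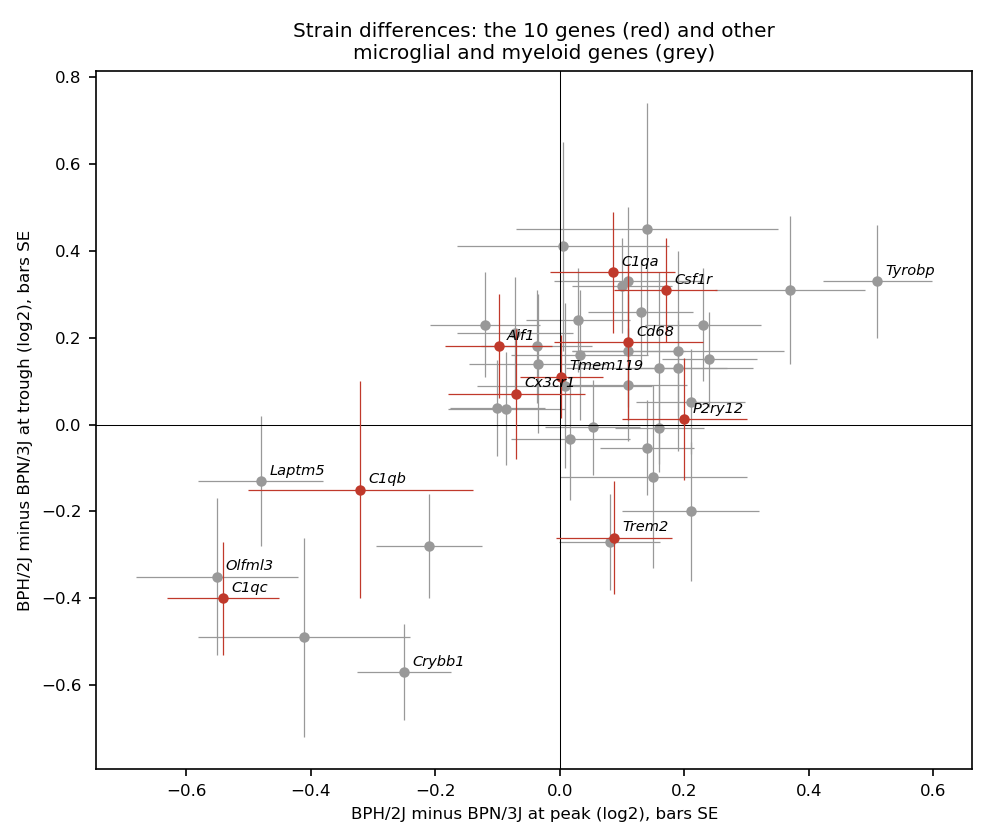
Strain difference (BPH/2J minus BPN/3J, log2) at ‘trough’ BP (y axis) against ‘peak’ BP (x axis) for the 10 genes (red) and the measured homeostatic and myeloid genes (grey), with SE bars. *C1qc* and *Olfml3* lie at the lower left and *Tyrobp* at the far right (0.51).

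Between the times, *Igf1*, a growth factor made by reactive microglia and other cells, rose and *Axl*, a receptor for apoptotic cells, fell in both strains, out of 24 measured genes of reactive microglia. *Igf1* was higher at ‘peak’ BP by 0.43 ± 0.078 in the BPH/2J and 0.51 ± 0.078 in the BPN/3J strain (SE, adjusted p = 0.00323 and 0.000609 from limma). *Axl* had differences of -0.46 ± 0.088 and -0.42 ± 0.088 (SE, adjusted p = 0.00451 and 0.00397). Of these 24 genes in BPN/3J mice, 1 rose and 5 fell, with *Itgax* (-0.59 ± 0.11 SE) and *Gpnmb* (-0.48 ± 0.11 SE) among the latter, and the median was -0.20 against -0.012 over all probesets. The 6 calls among 24 genes stand beside 25.3% of all probesets called. Of the 24 genes, 15 had a mean signal under the 40th percentile of all probesets. None of the 24 was called between the strains at either time, beside 1.33% of all probesets at ‘peak’ and 0.529% at ‘trough’ BP. At each time 1 had an unadjusted p under 0.05 in limma, beside 9.93% and 10.4% of all probesets.

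The homeostatic gene *Gpr34*, a lysophospholipid receptor, rose at ‘peak’ BP in BPN/3J mice (0.57 ± 0.19 SE, adjusted p = 0.0344 from limma) and *Crybb1* fell (-0.60 ± 0.093 SE, adjusted p = 0.000626). Among the myeloid genes *Ly86*, an accessory protein of Toll-like receptor signalling, rose (0.66 ± 0.15 SE, adjusted p = 0.00537), and *Irf8*, a transcription factor microglia need (-0.63 ± 0.14 SE, adjusted p = 0.00549), and *Syk*, a kinase downstream of TYROBP (-0.29 ± 0.099 SE, adjusted p = 0.0439), fell. In BPH/2J mice 0 of the 14 homeostatic and 0 of the 22 myeloid genes were called by limma (8.64% of all probesets), with 3 and 8 at an unadjusted p under 0.05, beside 23.1% of all probesets. The 2 homeostatic and 3 myeloid calls in BPN/3J mice stand beside 25.3%.

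Among 17 lysosomal and phagocytic genes, *Ctss*, a cathepsin typical of microglia, rose at ‘peak’ BP in both strains, by 0.26 ± 0.08 in the BPH/2J and 0.35 ± 0.08 in the BPN/3J strain (SE, adjusted p = 0.0498 and 0.00579 from limma). *Hexa* fell in BPH/2J mice (-0.24 ± 0.069 SE, adjusted p = 0.0392), and *Ctsb* (0.20 ± 0.068 SE, adjusted p = 0.0368) and *Lamp2* (0.55 ± 0.14 SE, adjusted p = 0.00932) rose in BPN/3J mice. None was called between the strains by limma, with 6 at ‘peak’ and 5 at ‘trough’ BP at an unadjusted p under 0.05, beside 9.93% and 10.4% of all probesets. Calls between the times were 2 of 17 genes for BPH/2J (8.64% of all probesets) and 3 of 17 for BPN/3J (25.3%). The ligands *Csf1*, *Il34*, *Cx3cl1*, *Apoe* and *Clu* of the receptors above were called in no comparison. *Cx3cl1*, the fractalkine read by CX3CR1, had ‘peak’ minus ‘trough’ differences of -0.27 ± 0.11 in the BPH/2J and -0.29 ± 0.11 in the BPN/3J strain (SE, limma adjusted p = 0.168 and 0.0691).

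Beside C1q, 18 other complement components were measured, and some of them, such as *Masp2* and *Cfb*, belong to other complement pathways. At ‘peak’ BP *C2*, which is cleaved by the C1 complex, was higher in BPH/2J mice (5.78 to 6.08 against 5.38 to 5.75, difference 0.39 ± 0.076 SE, adjusted p = 0.0112 from limma). *C4a* was lower (5.67 to 6.14 against 6.33 to 6.75, difference -0.49 ± 0.095 SE, adjusted p = 0.00992). So 1 of the 18 was called in each direction, beside 1.33% of all probesets called. *C4a* and *C4b* are near-identical copies whose probes may share signal, and *C4b* differed by -0.21 ± 0.099 (SE, adjusted p = 0.516). The proteases of the C1 complex, *C1ra* and *C1s1*, differed by 0.09 ± 0.11 and 0.052 ± 0.14 (SE). In BPH/2J mice *C4b* fell at ‘peak’ BP (-0.48 ± 0.12 SE, adjusted p = 0.0214), and in BPN/3J mice *C9*, *Masp2* and *Cfb* fell (-0.31 ± 0.098, -0.53 ± 0.11 and -0.38 ± 0.13 SE). There 3 of the 18 components were called, beside 25.3% of all probesets, and 17 had negative differences, with a median of -0.17 against -0.012 over all probesets. Of the 18 components, 10 had a mean signal under the 40th percentile.

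Of 18 complement regulators and receptors, none was called between the strains by limma, beside 1.33% of all probesets at ‘peak’ and 0.529% at ‘trough’ BP. An unadjusted p under 0.05 was found for 1 at ‘peak’ and 5 at ‘trough’ BP, beside 9.93% and 10.4% of all probesets. *Megf10*, an engulfment receptor that binds C1q and is typical of astrocytes, fell at ‘peak’ BP, with differences of -0.70 ± 0.11 in the BPH/2J and -0.42 ± 0.11 in the BPN/3J strain (SE, adjusted p = 0.00119 and 0.0106 from limma). *C5ar1*, the receptor for C5a, fell too (-0.39 ± 0.084 and -0.31 ± 0.084 SE, adjusted p = 0.00878 and 0.0152). BPN/3J mice had 4 regulators that rose, among them the membrane inhibitors *Cd55* (0.81 ± 0.16 SE, adjusted p = 0.00293) and *Cd59b* (0.65 ± 0.17 SE, adjusted p = 0.0133) and the receptor-related *Cr1l* (0.84 ± 0.17 SE, adjusted p = 0.00325). These 4, with 5 that fell, made 9 of 18 called, beside 25.3% of all probesets, and 8 of the 18 had a mean signal under the 40th percentile. For all 7 lists, 0 genes were called for *d* by limma, as were 0% of all probesets. Per list, 0 to 2 genes had an unadjusted p under 0.05, beside 8.31% of all probesets.

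Markers of other cells gave the setting in which these values stand. Microglia are not the sole source of these transcripts, since macrophages at the brain's borders also carry *Csf1r*, *Aif1*, *Cx3cr1*, *Cd68* and C1q. Of 10 border macrophage markers, 2 fell in each strain at ‘peak’ BP, where *Csf1r* was also lower, beside shares of all probesets called of 8.64% (BPH/2J) and 25.3% (BPN/3J). Their mean level was 5.14 to 5.33 at ‘peak’ and 5.25 to 5.48 at ‘trough’ BP in BPH/2J mice, with 4.98 to 5.39 and 5.28 to 5.43 in BPN/3J mice. *Stab1*, a scavenger receptor among them, fell, with differences of -0.58 ± 0.10 in the BPH/2J and -0.56 ± 0.10 in the BPN/3J strain (SE, adjusted p = 0.00243 and 0.00152 from limma). The defining marker *Mrc1* had a difference of -0.48 in BPH/2J mice (adjusted p = 0.0472), and 7 of the 10 markers had a mean signal under the 40th percentile. Their part in the *Csf1r* difference was not tested. Between the strains, 0 border macrophage markers were called at either time by limma, beside 1.33% of all probesets at ‘peak’ and 0.529% at ‘trough’ BP. An unadjusted p under 0.05 was found for 0 at ‘peak’ and 1 at ‘trough’ BP, beside 9.93% and 10.4% of all probesets.

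In BPN/3J mice, where *Trem2* fell and *Aif1* rose at ‘peak’ BP, 4 of 10 lymphocyte and 3 of 10 monocyte and neutrophil markers fell, beside 25.3% of all probesets called. Of 12 neuronal markers 1 rose and 3 fell there. Of 11 oligodendrocyte markers 2 rose, of 11 endothelial markers 1 rose and 1 fell, and of 12 astrocyte markers 0 were called. The mean lymphocyte level was 4.85 to 5.09 at ‘peak’ and 5.16 to 5.54 at ‘trough’ BP, with 7 of the 10 markers under the 40th percentile of all probesets. The mean level of the monocyte and neutrophil markers was 4.48 to 4.76 at ‘peak’ and 4.74 to 5.04 at ‘trough’ BP, with all 10 under that percentile. In BPH/2J mice, where *P2ry12* rose, 3 of 11 endothelial and 3 of 12 astrocyte markers fell, beside 8.64% of all probesets called. The endothelial transporter *Slco1a4* went the other way, at 8.97 to 9.43 at ‘peak’ and 8.68 to 8.94 at ‘trough’ BP (0.42 ± 0.15 SE, limma adjusted p = 0.0845). The mean endothelial level was 7.56 to 7.88 at ‘peak’ and 7.91 to 7.98 at ‘trough’ BP. In the same BPH/2J mice 1 of 12 neuronal markers rose, and 0 of 11 oligodendrocyte markers were called. Between the strains at ‘peak’ BP, where *C1qc* was lower, 1.33% of all probesets were called. *Slco1a4* was the single call there among markers of endothelium, astrocytes, oligodendrocytes, neurons, lymphocytes, border macrophages, monocytes and neutrophils (0.62 ± 0.12 SE, adjusted p = 0.00931 from limma). Their part in the differences of the 10 genes was not tested.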

How the data were processed

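Each of 18 mice gave RNA for 1 Affymetrix Mouse Gene 1.0 ST array. RMA was run by the authors, whose deposited log2 values of 34760 probesets entered all tests as they stand. RMA scales the arrays to one another, so a shift of all genes could go unseen. The medians of the deposited values still ran from 6.166 to 6.423. The version of RMA is not given in the sources used here. Mice were grouped by the titles and were not paired by the numbers in them. Deviations of same-numbered mice correlated at -0.296 to 0.194, a check on few pairs that cannot exclude shared handling by number.

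Group differences came from limma 3.58.1 under R 4.3.3 (4 group means, 14 residual and 2.94 prior degrees of freedom, Benjamini-Hochberg over all probesets). Exact and sampled permutation tests were made in Python 3.11.15 with scipy 1.17.1, 2-sided, and figures with matplotlib 3.10.9. The procedure was tested on simulated data. The 10 genes and all gene lists were chosen with earlier results of these data known. Genes were named by rule: all 10 genes, up to 4 genes per list and comparison with the smallest p where any passed, and the 10 most like the average. Flanking genes of the C1q cluster, *Spi1*, *P2ry13*, the ligands and the C1 proteases were named for their roles. Alternatives were other scalings, a signal filter, array weights, other priors, fits of 2 groups, a block for the mouse number and leaving out arrays or the higher-numbered ‘peak’ mice.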

Additional observations from a re-analysis of the deposited data

Results flagged for a closer look

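Of 20 sets of 6 ‘peak’ mice (10 genes in 2 strains), 2 held a mouse far from the others, and chance flags about 1 in 20. Both were BPN/3J mouse 11, whose array was among the least correlated with the rest. Its *C1qa* signal was 8.02, with the nearest mouse at 8.31, a gap of 0.653 of the group's range. Its *Cd68* signal was 6.38, with the nearest mouse at 6.84, a gap of 0.648 of the range. The cause was not tested.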

How the results depend on the processing

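The *C1qc* difference between the strains at ‘peak’ BP kept its direction under every alternative and its call under all but 2. A block for the mouse number used 12 arrays, and there 0 genes were called (*C1qc* -0.49, adjusted p = 0.123), as without the block on the same arrays (0, -0.49, adjusted p = 0.1). The share of all probesets called was 0.4% with the block and 0.785% without it, against 1.33% in the main fit. No block was possible between the times, where groups share too few numbers. With a term for the higher-numbered mice, 2 genes were called (*C1qb* and *C1qc*), beside 2.13% of all probesets. At ‘trough’ BP array weights, which gave BPN/3J mouse 3 a weight of 9.44 against 0.409 and 0.636 for the others, turned 0 called genes into 3 (*Trem2*, *C1qa* and *C1qc*), while the share of all probesets called went from 0.529% to 23.3%. Between the times, the calls in BPH/2J mice went from 2 to 1 with median centring and to 0 to 2 with 1 array left out. The share of all probesets called there went from 8.64% to 6.28% with median centring and to between 2.98% and 10.2% with 1 array left out. In BPN/3J mice the calls went from 3 to 1 with median centring, 5 with array weights, 0 with a fit of these groups alone and 1 to 3 with 1 array left out. The share of all probesets went from 25.3% to 23.3%, 55.9% and 13.7% in the first 3 of these settings, and to between 11% and 27.4% with 1 array left out. Median centring moved the median of all probesets in BPN/3J mice from -0.012 to 0.084. *d* gave 0 calls among the 10 genes throughout, with 997 probesets called in all with array weights. Of 45 correlations 3 passed by Spearman's rho and 4 after quantile normalization, and that of *Cx3cr1* and *C1qb* was -0.053 without the higher-numbered mice. The cause of these shifts was not tested.

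Signs turned among values that were not called. With array weights *d* became 0.009 for *Csf1r*, 0.089 for *C1qc* and 0.055 for *Cd68*, the time difference of *Cx3cr1* in BPN/3J mice 0.049, and the ‘trough’ strain difference of *P2ry12* -0.23. Median centring gave 0.056 for *Trem2* in BPH/2J mice, and 0.054 for *Cx3cr1*, 0.0085 for *Tmem119* and 0.08 for *C1qc* in BPN/3J mice. Quantile normalization gave 0.032 for *Trem2* in BPH/2J mice, -0.0055 for *C1qa* in BPN/3J mice and -0.024 for *Cx3cr1* between the strains at ‘trough’ BP. The term for the higher-numbered mice and their removal gave time differences in BPN/3J mice of 0.079 and 0.11 for *Cx3cr1* and of 0.018 and 0.0054 for *C1qb*. Without the 2 least correlated arrays, a setting added after seeing the data, *Cx3cr1* in BPN/3J mice became 0.068 and *P2ry12* between the strains at ‘trough’ BP -0.10. With 1 array left out, *d* of *Cd68* ran from -0.17 to 0.063, and the time difference of *Trem2* in BPH/2J mice from -0.04 to 0.062. In BPN/3J mice *Cx3cr1* ran from -0.09 to 0.046, *C1qa* from -0.036 to 0.18, *C1qc* from -0.12 to 0.11 and *Cd68* from -0.00084 to 0.23. Between the strains *Tmem119* ran from -0.024 to 0.03 at ‘peak’ and *P2ry12* from -0.1 to 0.14 at ‘trough’ BP. Averaging several probesets was not run, since each gene had 1.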
